A study of Homo sapiens with 6 samples.

Results

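The chromatin of 10 genes of glycolysis was examined in MDA-MB-231, an established cell line of triple-negative breast cancer: the glucose transporter gene SLC2A1, the enzyme genes HK2, PFKP, ALDOA, TPI1, GAPDH, PGK1, ENO1 and PKM, and LDHA. They are 10 of 19970 protein-coding genes, picked by name, and every enriched region that overlapped the span of a gene extended by 5 kb on both sides was taken as belonging to it. Regions came from CUT&Tag, in which an antibody directs a transposase to cut and tag the DNA near its target. The antibodies were against NONO, an RNA- and DNA-binding nuclear protein, against H3T11ph, histone H3 phosphorylated on its threonine 11, and against H3K27ac, histone H3 acetylated on its lysine 27, a mark of active promoters and enhancers. NONO was profiled in control cells (NC, labelled wild type) and in NONO-KD cells, in which NONO had been knocked down. H3T11ph and H3K27ac were each profiled in NC cells and in PKM2-KD cells, in which PKM2, a protein made from PKM, had been knocked down. Each of these 6 groups was 1 library, so no comparison below has a replicate check and no p-value was computed. Intervals are exact 95% intervals of the counts of regions and cover counting error only.

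Glycolysis breaks glucose down to pyruvate and yields ATP without oxygen. Many tumors run it at a high rate even with oxygen at hand and pass the pyruvate on to lactate. PKM gives rise to the pyruvate kinases PKM1 and PKM2 by alternative splicing, and PKM2 is the form that prevails in proliferating cells. Besides its place in the pathway, PKM2 has been described in the nucleus as a kinase of histone H3 at threonine 11.

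The 10 genes held 28 of the 89474 NONO regions in NC and 7 of 44349 in NONO-KD. They held 11 of 42674 H3T11ph regions in NC and 22 of 36583 in PKM2-KD. Of H3K27ac, they held 166 of 572970 regions in NC and 156 of 212856 in PKM2-KD. The lists of a pair were not all made alike, and this touches every comparison below. In the NC lists of NONO and H3K27ac, 94.6% and 79.3% of all regions were just as wide as the narrowest one listed, against 1.19% to 2.05% in the other 4 lists. For these 2 targets, the making of the list and the knockdown cannot be told apart. Nor can fewer cells with a region be told apart from less signal in each cell, as each library pooled many cells. The H3T11ph lists were alike in the share of regions at the narrowest width, 1.81% (NC) and 1.42% (PKM2-KD), that width being 111 bp and 91 bp. The H3K27ac lists covered a median of 13.1% (NC) and 15.4% (PKM2-KD) of the extended span of 5 mesenchymal marker genes and of 2.62% and 1.16% of that of 5 luminal and epithelial marker genes, among which GATA3 reached 15.9% and 16.7%.

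To show the DNA that the regions near gene starts cover, the 250 bases before a RefSeq start are printed for 4 genes that differ in what was found there: LDHA, which had H3T11ph in both libraries, HK2, which had NONO in NC, SLC2A1, which had H3K27ac without NONO or H3T11ph, and PGK1, which had none of the targets in any library. The sequences are RefSeq's for GRCh38.p14, given 5′ to 3′ on the strand of the gene. Capitals mark, on either strand, CACGTG (the E-box bound by MYC among others), ACGTG and GCGTG (cores of the hypoxia response element) and GGGCGG (the GC box bound by Sp1 proteins), and adjoining or overlapping matches run together. Every CACGTG holds an ACGTG on both strands.
LDHA, chr11:18394313-18394562, plus strand: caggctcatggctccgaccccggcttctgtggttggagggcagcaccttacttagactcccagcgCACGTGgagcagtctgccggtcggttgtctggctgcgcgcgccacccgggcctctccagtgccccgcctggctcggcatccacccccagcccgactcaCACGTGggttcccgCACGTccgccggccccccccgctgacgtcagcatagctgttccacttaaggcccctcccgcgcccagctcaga
HK2, chr2:74833877-74834126, plus strand: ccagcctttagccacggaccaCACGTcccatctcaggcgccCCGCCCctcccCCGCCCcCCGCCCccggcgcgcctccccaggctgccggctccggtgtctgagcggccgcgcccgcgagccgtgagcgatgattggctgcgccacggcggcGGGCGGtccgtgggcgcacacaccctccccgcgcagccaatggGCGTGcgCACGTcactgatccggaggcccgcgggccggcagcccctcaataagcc
SLC2A1, chr1:42958869-42959118, minus strand: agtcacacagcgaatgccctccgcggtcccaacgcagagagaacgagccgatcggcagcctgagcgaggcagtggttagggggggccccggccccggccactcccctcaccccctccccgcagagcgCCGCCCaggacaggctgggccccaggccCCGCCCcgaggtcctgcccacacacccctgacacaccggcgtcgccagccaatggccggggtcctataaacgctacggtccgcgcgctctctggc
PGK1, chrX:78103998-78104247, plus strand: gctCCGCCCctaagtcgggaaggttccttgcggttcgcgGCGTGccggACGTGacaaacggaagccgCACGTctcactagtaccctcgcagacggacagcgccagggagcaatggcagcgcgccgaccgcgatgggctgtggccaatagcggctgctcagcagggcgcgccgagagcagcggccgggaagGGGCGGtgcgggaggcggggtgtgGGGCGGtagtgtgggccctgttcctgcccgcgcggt

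The LDHA window held 2 CACGTG and 1 further ACGTG. The HK2 window held 2 ACGTG, 1 GCGTG and 4 GGGCGG, and the SLC2A1 window only 2 GGGCGG. PGK1, whose start carried no region, held 2 ACGTG, 1 GCGTG and 3 GGGCGG. Over the 18 windows of the 10 genes, 4 held CACGTG, 10 ACGTG, 7 GCGTG and 13 GGGCGG, while 7.37%, 20.2%, 38.2% and 53.7% of 22131 such windows of all genes did. A match is a string of letters and was not shown here to be bound by a factor.

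SLC2A1 encodes GLUT1, the transporter that brings glucose into most cells. Its gene lies at chr1:42925353-42958868 on the minus strand. H3K27ac covered 21.7% of its extended span in NC and 45.1% in PKM2-KD, the second highest share among the 10 genes in the latter. The widest region after knockdown, 3570 bp, lay inside the gene, with its summit 22066 bp past the start. At the start itself (the window printed above) the H3K27ac region was 301 bp wide with a fold of 5.09 in NC. In PKM2-KD it was 942 bp wide with a fold of 3.88. Fold is the height of the fragment pile at the summit over its local background, each with 1 added. In the H3K27ac NC list alone, heights were scaled down before the 1 was added. H3K27ac folds of NC and PKM2-KD are therefore on unlike scales, here and below. Differences between them are not read as changes in signal. H3T11ph was not listed at SLC2A1 in NC. In PKM2-KD it had 2 regions, of which the stronger (chr1:42943272-42943384, fold 33.7, 60 fragments at the summit) lay 15531 bp inside the gene, within an H3K27ac region of 1697 bp in the same cells. NONO had 4 regions in NC, all inside the gene, with folds of 3.16 to 26.3. The 2 NONO-KD regions lay elsewhere, 1 upstream of the gene (fold 33.4) and 1 downstream (fold 17.2).

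HK2 encodes hexokinase 2, which traps glucose in the cell by phosphorylating it. H3K27ac covered 18.5% of its extended span (gene at chr2:74834127-74893359) in NC and 25.8% in PKM2-KD. The strongest H3K27ac region after knockdown (chr2:74864533-74866905, fold 69.4) lay about the middle of the gene and had a counterpart of 1782 bp with a fold of 23.6 in NC. Right there, H3T11ph was listed in PKM2-KD with 2 regions, of 96 bp (fold 42.7) and 502 bp (fold 25.2), and not in NC. The 502 bp region was the widest of the 33 H3T11ph regions at the 10 genes. The remaining H3T11ph region in PKM2-KD (fold 27.5) lay just past the gene's end. A NONO region of NC overlapped the edge of the 502 bp region, with a fold of 3.69 and 6 fragments at its summit, among the weakest NONO regions of the 10 genes. NONO NC was also listed over the first start of HK2, in the window printed above, with a fold of 2.91, and deeper inside the gene with a fold of 29.0. In NONO-KD the gene had 1 NONO region, at another place inside the gene, and its fold of 58.7 was the highest of the 7 in that library.

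PFKP encodes the platelet type of phosphofructokinase, the main control point of the pathway. It was the longest of the 10 genes (69258 bp, chr10:3067548-3136805) and had the most H3K27ac regions, 45 in NC and 40 in PKM2-KD, covering 24.2% and 31.5% of its extended span. Its widest H3K27ac region was of like size in both libraries, 4482 bp in NC and 4728 bp in PKM2-KD at chr10:3093273-3098000, with folds of 42.1 and 88.4. H3T11ph had 1 region in NC (fold 30.6) and 4 in PKM2-KD (folds 17.4 to 30.7). The single NC region did not overlap any of the 4. Over the whole list, 5.75% of H3T11ph NC regions overlapped one of PKM2-KD. One of the 4 (chr10:3069111-3069225, fold 22.1) lay over the third of the 4 RefSeq starts of PFKP, where NC had none. NONO had 6 regions inside the gene in NC, with folds of 5.21 to 86.2. NONO-KD had 1 region in the window, beyond the gene's end and inside the neighbor PITRM1.

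ALDOA and TPI1 encode aldolase A, which splits fructose 1,6-bisphosphate, and triosephosphate isomerase, which interconverts the products. H3K27ac covered 11.7% of the extended span of ALDOA (chr16:30064279-30070420) in NC and 29.1% in PKM2-KD. ALDOA was the only one of the 10 genes with NONO and H3T11ph listed over the same start window. At the third of its RefSeq starts, a NONO NC region (chr16:30065461-30065729, fold 8.37) held 353 fragments at the summit, and H3T11ph regions overlapped it in NC (121 bp, fold 8.17) and in PKM2-KD (350 bp, fold 11.8). No H3K27ac region covered that window in either library, although wide ones lay on both sides of it in PKM2-KD, 2044 bp and 1945 bp. This place lies within the span of the neighbor LOC112694756 too. The strongest NONO region of the 10 genes in NC, with a fold of 106, lay downstream of ALDOA, and NONO-KD had none in the window.

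TPI1 (chr12:6867420-6870948) stood apart from most of the others in H3T11ph. It had 3 H3T11ph regions in NC and 1 in PKM2-KD, and the covered share was 3.80% and 0.843%. In NC, the regions near its first RefSeq start had folds of 55.7 (94 fragments at the summit) and 28.9 (chr12:6867335-6867542, 50 fragments), and PKM2-KD had no H3T11ph within 1 kb of a TPI1 start. The single PKM2-KD region lay downstream of the gene with a fold of 18.4. H3K27ac over that first start went the other way in number of regions, from 1 in NC (fold 4.20) to 2 in PKM2-KD (highest fold 7.20). Over the whole window H3K27ac covered 5.43% and 15.5%. No NONO region was listed at TPI1 in either library. USP5 and SPSB2 lie in the same window, so its values are not those of TPI1 alone.

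GAPDH encodes the dehydrogenase that makes the first NADH of the pathway. Its H3K27ac was the highest of the 10 genes, 29.8% of the extended span in NC and 54.9% in PKM2-KD, the 99.6th and 99.9th percentile of all protein-coding genes. NCAPD2 and IFFO1 lie in the same window, and 3 of the 9 H3K27ac summits in NC and 3 of the 5 in PKM2-KD lay inside them. One region of 3924 bp spanned nearly the whole gene (chr12:6534517-6538371) in PKM2-KD, where NC had several short ones. The region just upstream was of like width in both, 2528 bp in NC (fold 16.8) and 2598 bp in PKM2-KD (fold 17.2). H3T11ph was not listed at GAPDH in NC. In PKM2-KD it had 4 regions, the most of any member together with PFKP, with folds of 2.36, 6.30, 12.8 and 16.5. All 4 lay upstream of the RefSeq start used here, with summits from 2635 bp to 372 bp before it, and all 4 overlapped H3K27ac of the same cells. The annotated 5′ end of the gene lies further upstream, so the nearest of the 4 was inside the gene's span. These folds were low beside the median of 21.4 over all H3T11ph regions of that library. NONO had 2 regions in NC, with folds of 56.4 and 22.3, and 1 region upstream in NONO-KD with a fold of 18.5. GAPDH has 65 pseudogenes named after it, the most of the 10, and how reads that fit several places were treated is not given in the sources used here.

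PGK1, phosphoglycerate kinase 1, makes the first ATP of the pathway. It was the member with the least signal. No NONO and no H3T11ph region was listed in its window (gene at chrX:78104248-78129295) in any library. H3K27ac covered 0.320% of the window in NC, a single region of the narrowest width, and 2.08% in PKM2-KD with 2 regions. Neither lay over the start, but their summits were 299 bp and 758 bp past it, with folds of 2.43 and 14.8. TAF9B is a neighbor in this window. The gene is on chromosome X, where coverage was lower at large. H3K27ac covered a median of 1.74% of the extended span of 848 X-linked genes in NC against 3.73% on the autosomes, and 0.869% against 2.71% in PKM2-KD. In NC, PGK1 lay below that median of chromosome X, and in PKM2-KD above it.

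ENO1 encodes enolase 1 (chr1:8861000-8878686), which forms phosphoenolpyruvate, the substrate of pyruvate kinase. It was the only member with more NONO in NONO-KD than in NC: none in NC and 1 region upstream of the gene in NONO-KD, with a fold of 28.0 and 88 fragments. H3T11ph was likewise absent from the NC list and had 1 region inside the gene in PKM2-KD, with a fold of 29.8. H3K27ac covered 13.7% in NC and 21.7% in PKM2-KD. The region over its start was 924 bp wide with a fold of 6.37 in NC and 1801 bp with a fold of 9.72 in PKM2-KD.

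PKM (chr15:72199029-72231591, minus strand) encodes the pyruvate kinase whose PKM2 form was knocked down in the PKM2-KD cells. These libraries read chromatin and not RNA, so they do not check the knockdown. PKM had the most NONO regions of the 10 genes in NC, 8, covering 5.06% of its extended span, the 93.8th percentile of all genes. Those regions ran the length of the gene, from 2412 bp past the start to just beyond its far end, with folds of 3.30 to 76.9, and none lay over the start. NONO-KD had 1 region, with a fold of 5.46 and 7 fragments at the summit, the weakest of the 7 in that library.

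H3T11ph at PKM was listed with 3 regions in each library, which covered 516 bp in NC and 566 bp in PKM2-KD. None of the NC regions overlapped one of PKM2-KD, but 2 were near neighbors in the first part of the gene. The NC one (chr15:72226403-72226648) had 32 fragments at its summit, 4740 bp past the start. It ended just short of the PKM2-KD one (chr15:72226653-72226937), which had 78 fragments at its summit, 4293 bp past the start, and a fold of 19.9. The other NC regions lay downstream, inside the neighbor GRAMD2A, with folds of 3.43 and 8.57. The other PKM2-KD regions lay inside PKM, with folds of 6.10 and 25.2. H3K27ac at PKM covered 10.4% in NC with 19 regions and 21.4% in PKM2-KD with 22. Over the start it had a region of 274 bp with a fold of 4.48 in NC and of 619 bp with a fold of 13.7 in PKM2-KD. The strongest H3K27ac region in PKM2-KD, with a fold of 51.0, reached into the window from upstream and had its summit 6433 bp before the start.

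LDHA encodes the muscle type subunit of lactate dehydrogenase, which turns pyruvate into lactate. The strongest H3T11ph region of the 10 genes lay on its first start (gene at chr11:18394563-18408425) in NC. That region (chr11:18394426-18394569) had a fold of 101 and its summit 3 bp before the start, inside the LDHA sequence printed above. In PKM2-KD the H3T11ph region of that window (chr11:18394323-18394423) lay 202 bp before the start and had a fold of 44.5, and the regions of the NC and PKM2-KD libraries did not overlap. At the second start, H3T11ph regions of both libraries did overlap, with folds of 37.1 in NC and 47.4 in PKM2-KD. Such an overlap was found for 5.75% of all H3T11ph NC regions. The covered share of LDHA was 2.49% in NC and 1.55% in PKM2-KD. H3K27ac lay over both starts with separate regions of 1052 bp and 741 bp in NC and with one region of 2861 bp in PKM2-KD. A NONO NC region (fold 27.4, 168 fragments) overlapped the H3T11ph region of NC before the second start, and NONO-KD had none in the window. The LDHA window reaches into its paralog LDHC.

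Read over the 10 genes, NONO was listed at fewer base pairs after NONO knockdown, as it was at most of all protein-coding genes. A region was present at 7 of 10 genes in NC, where 77.1% of all protein-coding genes had one, and at 6 of 10 in NONO-KD, where 51.5% did. Fewer base pairs were covered at 7 genes (75.4% of all genes) and more at 1, ENO1 (8.45% of all genes). TPI1 and PGK1 had no region in either library. The number of regions in NONO-KD was 25.0% of that in NC (interval 9.22% to 58.6%), and over the whole lists it was 49.6%. With NONO lists of equal length it was 53.8% at the 10 genes, and with genes extended by 1 kb it was 7.41%. All 28 NC regions were exactly 269 bp wide, the narrowest width of that list, and the 7 NONO-KD regions were 104 to 157 bp wide. Base pairs were therefore set by the number of regions in NC, and equal numbers of regions would still have given fewer base pairs in NONO-KD. No NC region overlapped a NONO-KD region (0 of 28, upper limit 12.3%), while 2.01% did over the whole list. Most NC regions, 21 of 28, had their summit in the gene body beyond 1 kb from a start, and 5 lay within 1 kb of one. A start window was covered at 2 genes in NC, HK2 and ALDOA (11.2% of 15811 genes with such a window), and at 0 in NONO-KD (3.45%).

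H3T11ph was listed at more of these genes after PKM2 knockdown, in a pair of lists alike in their share of regions at the narrowest width. The 2 lists had few places in common. Of the 11 NC regions, 2 overlapped a PKM2-KD region (18.2%, with 5.75% over the whole list). Of the 22 PKM2-KD regions, 2 overlapped an NC region (9.09%, with 6.98% over the whole list). Regions were present at 5 of 10 genes in NC (56.6% of all genes) and at 9 of 10 in PKM2-KD (53.2% of all genes). HK2, GAPDH, SLC2A1 and ENO1 had H3T11ph in PKM2-KD only, as had 3176 of all 19970 genes. No member had it in NC only, as 3845 of all genes did. The number of regions in PKM2-KD was 200.0% of that in NC (interval 93.0% to 457%), whereas it was 85.7% over the whole lists. Covered base pairs were more numerous at 7 genes, against 30.4% of all genes, and fewer at 2, LDHA and TPI1, against 42.0%. The members' median share of the extended span was 0.0915% in NC and 0.998% in PKM2-KD, and the medians over all genes were 0.137% and 0.0826%. The difference in number lay mostly away from starts. Within 1 kb of a start there were 6 in either library, and in the gene body beyond it 2 in NC and 11 in PKM2-KD. Start windows were covered at 3 genes in both, LDHA, ALDOA and TPI1 in NC (9.90% of all genes) and LDHA, ALDOA and PFKP in PKM2-KD (10.6%). The interval reaches below 100%, covers counting error only and does not measure the spread between libraries. With 11 and 22 regions and 1 library per group, whether the difference exceeds that spread is unknown.

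**Figure D1:**
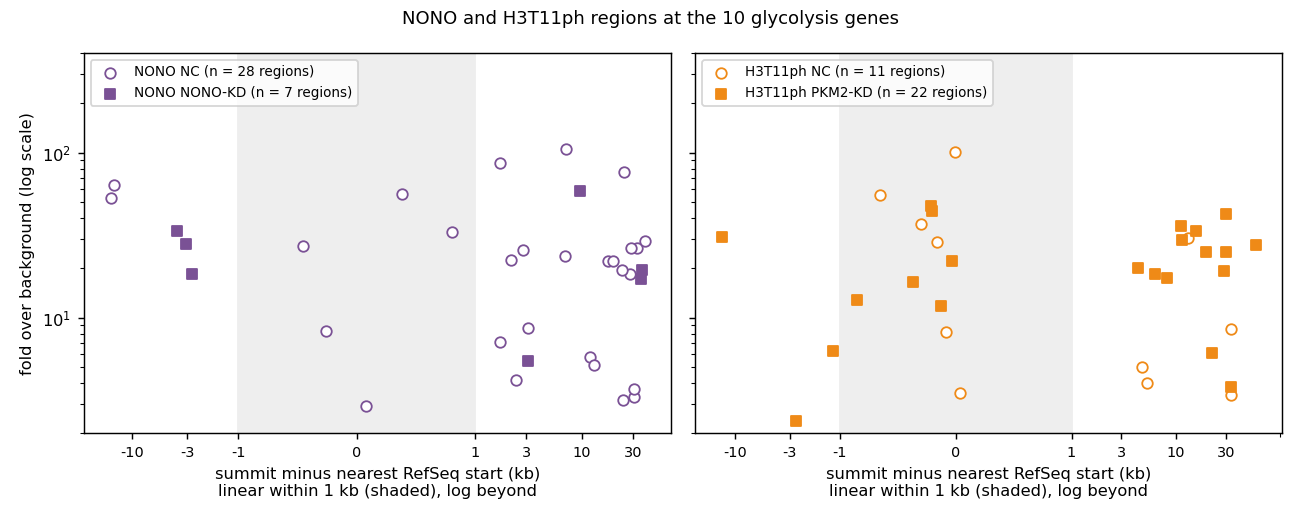
Fold over background (log scale) of each NONO and H3T11ph region at the 10 genes by the distance of its summit from the nearest RefSeq start in kb, linear within 1 kb (shaded) and log beyond; open circles are NC and filled squares the knockdown. In the H3T11ph panel, filled squares outnumber open circles to the right of the shaded band. The highest open circle of that panel, with a fold of 101, sits on the LDHA start.

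H3K27ac covered more of the extended span after PKM2 knockdown at 10 of 10 genes. Among all protein-coding genes 34.9% were covered more and 63.5% less. This direction over all genes turned under 3 settings, in which 61.1% (−log10 q of at least 5), 57.2% (regions at least 2 times the narrowest width) and 69.7% (lists of equal length) were covered more, and the count stayed at 10 of 10 for the genes described here. The ratio of covered base pairs, PKM2-KD over NC, was smallest at PFKP (19216 bp in NC and 24949 bp in PKM2-KD) and largest at PGK1 (6.50, 112 bp and 728 bp), with a median of 1.95, and its median over all genes was 0.818. The members were also among the most acetylated genes, and the part of this in that count was not tested. Their median share was 12.7% in NC and 23.8% in PKM2-KD, against 3.65% and 2.61% over all genes, and 9 of the 10 had a mean of at least 10% over both libraries. This threshold was set after the data were seen. Of the 2206 genes reaching it, 85.6% were covered more in PKM2-KD, with a median ratio of 1.39, beside 9 of 9 here. A large PKM2-KD share can itself lift a gene over the threshold, as at TPI1 (NC 5.43%, PKM2-KD 15.5%). The 85.6% and the 9 of 9 are thus not independent of how the genes were chosen, and the size of this effect was not tested. The number of regions was 166 in NC and 156 in PKM2-KD (94.0%, interval 75.0% to 118%), and it was 37.1% over the whole lists. The ratio turned to between 152% and 165% with a −log10 q of at least 5, with the width limit and with lists of equal length. The median width went from 127 bp in NC, where 79 of the 166 regions had a width of 112 bp, to 328 bp in PKM2-KD. The NC and PKM2-KD lists of H3K27ac differ in form over the whole genome, so this difference in width and the knockdown cannot be told apart.

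Both H3K27ac libraries had part of their regions at the same places. Of the 166 NC regions, 101 overlapped a PKM2-KD region (60.8%, interval 53.0% to 68.3%), against 13.3% of all NC regions. Of the 156 PKM2-KD regions, 80 overlapped an NC region (51.3%), against 33.2% of all. In base pairs, 77.1% of the NC coverage was shared, against 24.6% over the whole list, and 47.5% of the PKM2-KD coverage, against 35.3%. All 10 genes had a region in both libraries, as had 97.4% and 89.6% of all genes, and 9 of 10, without PGK1, had one over a start window in each (44.4% of all genes in NC and 47.9% in PKM2-KD).

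**Figure D2:**
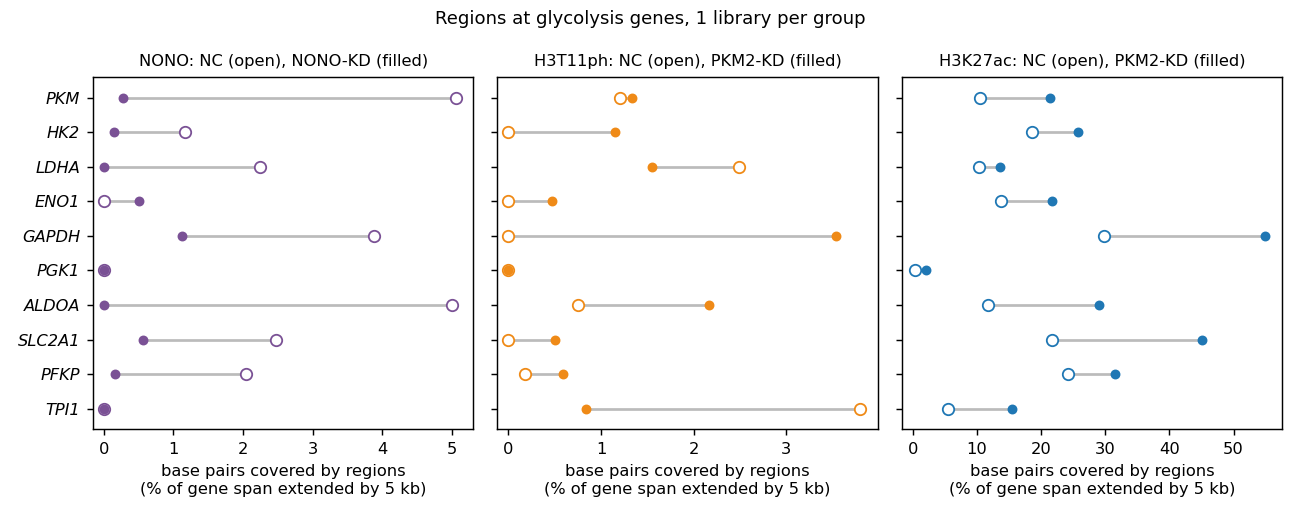
Share of the extended gene span covered by regions (%) at each of the 10 genes for NONO, H3T11ph and H3K27ac, with NC as an open and the knockdown as a filled circle, 1 library each. In the H3K27ac panel every filled circle lies to the right of its open one, and in the H3T11ph panel LDHA and TPI1 are the genes whose filled circle lies to the left.

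The 3 targets were then set against each other at the 10 genes. In NC, 11 of 28 NONO regions overlapped an H3K27ac region (39.3%, interval 21.5% to 59.4%), as did 16.8% of all NONO regions. At these genes the share was 25.0% with a −log10 q of at least 5, and 21.4% where at least 50% of the region had to be covered. Of the 11 H3T11ph regions of NC, 5 overlapped H3K27ac of NC (45.5%, interval 16.7% to 76.6%), with 19.7% over the whole list. With a −log10 q of at least 5, that 45.5% became 22.2%. In PKM2-KD, 19 of 22 H3T11ph regions overlapped H3K27ac of the same cells (86.4%, interval 65.1% to 97.1%), with 24.2% over the whole list. H3K27ac took up 16.2% of all the extended spans of the 10 genes in NC and 26.3% in PKM2-KD, and the part of this extent in the overlaps was not tested. The PKM2-KD regions of H3T11ph also met H3K27ac of NC, with 15 of 22 overlapping a region (68.2%, interval 45.1% to 86.1%), and 23.0% over the whole list. NONO and H3T11ph met at LDHA and ALDOA, where 2 of 28 NONO NC regions overlapped H3T11ph of NC (7.14%, with 2.95% over the whole list).

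Other genes of the pathway gave a measure of how far this went. A list of 16 more glycolysis and lactate genes had H3K27ac over a median of 4.49% in NC and 2.92% in PKM2-KD, with 10 genes covered more and 6 less. In H3T11ph, 4 of those 16 were covered more in PKM2-KD and 8 less, with a region at 9 genes in NC and at 10 in PKM2-KD. For NONO, 14 of the 16 were covered less in NONO-KD and 1 more. In 13 paralogs known mainly from other tissues, H3K27ac covered a median of 3.20% in NC and 1.98% in PKM2-KD, with 5 genes covered more and 8 less. H3T11ph regions lay at 4 of these 13 in NC and at 7 in PKM2-KD, with 5 genes covered more and 3 less.

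In most of the paralog pairs given here the gene described here had the larger H3K27ac share. PKM had 10.4% and 21.4% of its span covered in NC and PKM2-KD, and PKLR, the liver and red cell pyruvate kinase, 6.41% and 6.71%, in a window that also holds HCN3 and FDPS. PKLR had 3 H3T11ph regions in NC and none in PKM2-KD. SLC2A1 had 21.7% and 45.1% against 4.01% and 3.78% at SLC2A2, the liver and beta cell transporter. GAPDH had 29.8% and 54.9% against 7.67% and 2.93% at GAPDHS, the form of sperm, whose window holds TMEM147 and ATP4A. LDHA had 10.3% and 13.6% against 1.94% and 1.57% at LDHC, the testis form, whose window holds LDHAL6A and reaches into LDHA.

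The order was the opposite in the remaining pairs. PGK1 had 0.320% and 2.08% against 2.89% and 3.70% at PGK2, the testis form. ENO1 had 13.7% and 21.7% against 15.1% and 30.7% at ENO3, the muscle enolase, whose window holds the neighbors RNF167, PFN1 and SPAG7.

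**Figure D3:**
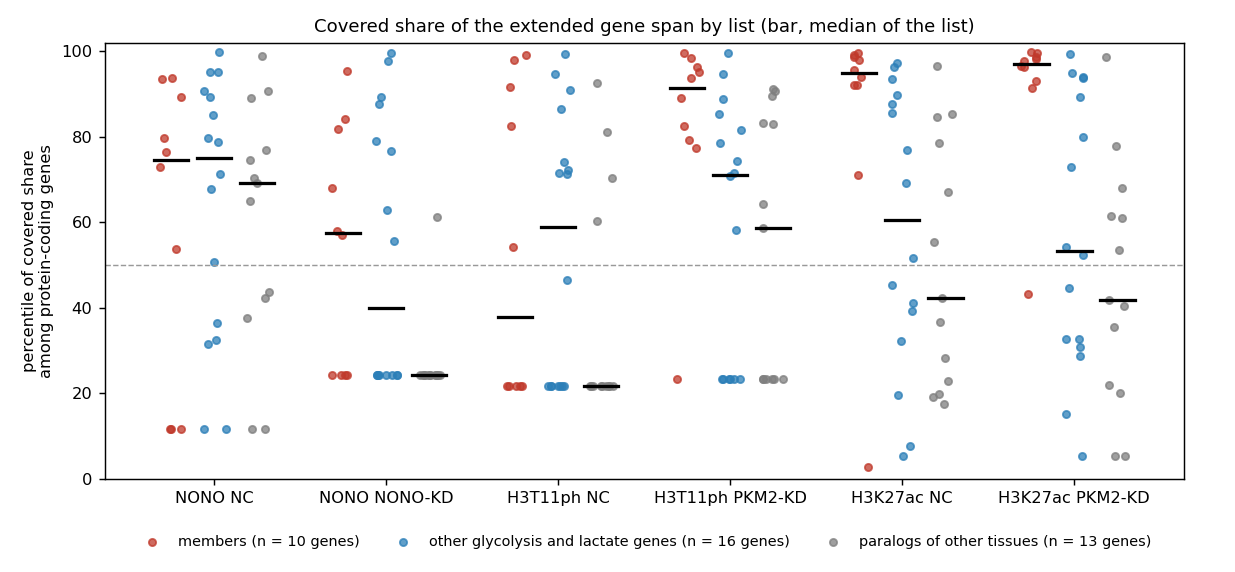
Percentile, among all protein-coding genes, of the share of the extended span covered by regions in each of the 6 libraries, for the 10 genes described here (members), 16 other glycolysis and lactate genes and 13 paralogs of other tissues; each point is a gene and the bar the median of its list. The median percentile of the 10 genes was 94.9 and 97.0 in the H3K27ac libraries and went from 37.9 to 91.4 between the H3T11ph libraries; genes without a region share 1 low percentile.

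The protein-coding genes most like PKM over the 6 libraries were RAC3, MAP2K3 and PNMA1, with distances of 6.07, 6.56 and 7.64. The distance is Euclidean, over the percentiles of the covered share in the 6 libraries. RAC3, a small GTPase gene, had H3K27ac over 11.2% and 26.9% of its extended span and H3T11ph over 0.934% and 1.78%. MAP2K3, a kinase gene of the p38 pathway, had 8.86% and 16.3% in H3K27ac and 1.39% and 1.17% in H3T11ph. This likeness describes the lists in these 6 libraries and has no test.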

How the data were processed

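CUT&Tag region lists of 6 libraries from MDA-MB-231 cells, 1 per group, were analysed as deposited. Per the labels, the authors' processing notes name FastQC 0.11.9, cutadapt 1.18, SAMtools 1.3.1, MACS2 2.1.1.20160309, DESeq2 and the build hg38. The aligner, the control, the handling of duplicates and the number of reads are not given in the sources used here, so sequencing depth is unknown. In the deposited lists each region has a score, a fold over background (a ratio), a −log10 p and a −log10 q-value, as the peak caller writes them. The deposited score was the whole part of 10 times the −log10 q. Heights in fragments were recovered from fold and −log10 p where −log10 p was under 200, by trying whole numbers of fragments. For 99.90% to 100% of 5000 regions tried per list, a whole number gave the listed −log10 p within 0.002. In the H3K27ac NC list the heights were scaled by 0.521.

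Gene spans and the 250 bases before to 50 after a start came from RefSeq tables of GRCh38.p14, and exons were not used here. A region counted for a gene when at least 1 bp lay in the span extended by 5 kb. Covered base pairs were counted inside that span, and percentiles were taken over 19970 genes with ties sharing a rank. Intervals are exact binomial (Clopper-Pearson, 95%). The 10 members were all named. Genes of the pathway lists were named in paralog pairs, of which 2 are not reported here, and the genes most like PKM by the smallest distance. The members, lists and tests were chosen with earlier results of these data known. With 1 library per group no test was run. Alternatives were a −log10 q of at least 5, an extension of 1 kb, regions at least 2 times the narrowest width, lists cut to equal lengths, covered base pairs, the summit inside the span, and an overlap of at least 50%. The counting was tested on simulated data. Python 3.11.15, numpy 2.4.6, scipy 1.17.1, pandas 2.3.3 and matplotlib 3.10.9 were used.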

Additional observations from a re-analysis of the deposited data

How the results depend on the processing

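No paired analysis was possible because there was just 1 library in every group. The number of NONO regions in NONO-KD was 7.41% of that in NC with genes extended by 1 kb, and 2 genes then had a NONO-KD region. With regions at least 2 times the narrowest width, 0 genes had a NONO region in NC and 0 in NONO-KD, so neither the NONO ratio nor its overlap with H3K27ac could be given, and 2 genes in NC and 3 in PKM2-KD had an H3T11ph region. With lists of equal length SLC2A1 joined ENO1 among the genes with more NONO base pairs in NONO-KD. The ratio of H3K27ac regions, PKM2-KD to NC, was reversed: 152% at a −log10 q of at least 5, 165% under the width limit, and 162% both with equal lists and in base pairs. H3K27ac base pairs were higher in PKM2-KD at 10 of 10 genes under each of these settings, while the share of all genes covered more ranged from 34.9% to 69.7%. The H3T11ph ratio stayed between 186% and 250.0%, but under the width limit it rested on 2 regions in NC and 4 in PKM2-KD. H3T11ph base pairs were then more at 3 genes (7.58% of all genes), fewer at 1 (8.38%) and equal at 6. The overlap of NONO with H3K27ac in NC was 21.4% when at least 50% of the region had to be covered. With a −log10 q of at least 5 that overlap was 25.0%, and the overlap of H3T11ph with H3K27ac in NC was 22.2%. The NONO ratio was 53.8% with lists of equal length and 11.8% in base pairs. The cause of these changes was not tested.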

Other observations

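Among the other glycolysis and lactate genes, SLC16A3 and PFKFB3 are given here, picked after their values were seen. SLC16A3 encodes MCT4, which exports lactate. NONO covered 20.4% of its extended span in NC with 17 regions, up to 1010 bp wide, and 3.16% in NONO-KD with 6 regions, the 99.9th and 99.5th percentile of all protein-coding genes. H3T11ph covered 3.96% in NC and 3.47% in PKM2-KD, and H3K27ac 14.7% and 37.5%. PFKFB3 encodes an enzyme that makes fructose 2,6-bisphosphate, the activator of phosphofructokinase. Its window is long, at 191717 bp, and it had 37 NONO regions in NC and 12 in NONO-KD, 13 H3T11ph regions in NC and 10 in PKM2-KD, and H3K27ac over 16.4% and 17.9% of its span.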
